A study of Mus musculus with 6 samples.

Results

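Healing mouse flexor tendons were compared for the genes that encode the fibril-forming collagen chains. In mice treated to deplete the Scleraxis lineage, 8 of the 10 chains were fitted higher, with no call by edgeR. The 10 genes were Col1a1, Col1a2, Col2a1, Col3a1, Col5a1, Col5a2, Col5a3, Col11a1, Col11a2 and Col24a1. They were taken by symbol from the 53819 genes of the deposited count table, and all 10 had enough counts to be tested among 17496 genes. The highest fold changes belonged to minor chains, Col5a3, Col24a1 and Col5a1. The type I genes, which are abundant, had smaller fold changes and overlapping libraries. Col3a1, also abundant, was higher without such overlap, while Col2a1 and Col11a2, both of low count, were fitted lower.

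Bulk mRNA was sequenced from repaired flexor digitorum longus (FDL) tendons of the hind paw, with 1 tendon in each library and 3 libraries per genotype. DTRScxLin mice (Scx-Cre+; DTR F/+) carried a diphtheria toxin receptor allele that Cre recombination turns on, and Cre was expressed from Scleraxis (Scx) regulatory sequence. WT controls (Scx-Cre-; DTR F/+) carried the same receptor allele without Cre. Both genotypes were 10 to 12 weeks old at surgery, underwent complete transection and suture of the tendon, and received 100 ng of diphtheria toxin locally on each of 5 days, from day 14 to day 18 after surgery. Tendons were collected on day 28 after surgery, although the titles of the samples place day 28 after depletion. The Cre was not inducible, so any cell whose history included Scx expression could carry the receptor, including cells that switched Scx on after injury. The toxin was given to the controls too, and no tendon without toxin or without surgery was among the libraries. The study names as a limit that the efficiency of depletion could not be quantified, since no Scx reporter was included.

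Fibrillar collagens are secreted as procollagens whose 3 chains wind into a long triple helix. Once the end propeptides are cut off, the trimers pack side by side into the banded fibrils that carry load in tendon. Type I collagen, built from Col1a1 and Col1a2 chains, makes the bulk of these fibrils. Type III collagen co-assembles with it and is prominent in scar, types V and XI sit within the fibril where they start its assembly and limit its width, and type II is the collagen of cartilage. Type XXIV is a minor fibril-forming chain best known from developing bone.

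Promoter sequence is shown for 5 members, to set the abundant type I and III genes beside the 3 genes that DESeq2 called. Sequences were those of RefSeq on GRCm38.p6, where 7 of the 10 symbols were matched, and each run covers the 200 bases from 250 to 51 before the annotated start. Capitals mark the CCAAT box (CCAAT, or ATTGG for the other strand), a common promoter element.
Col1a2, chr6:4505368-4505567 (plus strand): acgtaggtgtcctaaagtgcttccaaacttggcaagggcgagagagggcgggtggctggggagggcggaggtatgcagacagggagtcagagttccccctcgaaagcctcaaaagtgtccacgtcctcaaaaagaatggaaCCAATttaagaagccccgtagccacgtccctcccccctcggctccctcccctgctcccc
Col3a1, chr1:45311288-45311487 (plus strand): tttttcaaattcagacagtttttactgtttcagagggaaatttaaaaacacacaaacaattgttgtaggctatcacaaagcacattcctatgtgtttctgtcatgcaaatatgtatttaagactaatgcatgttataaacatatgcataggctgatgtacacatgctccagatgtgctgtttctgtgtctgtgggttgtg
Col5a1, chr2:27886175-27886374 (plus strand): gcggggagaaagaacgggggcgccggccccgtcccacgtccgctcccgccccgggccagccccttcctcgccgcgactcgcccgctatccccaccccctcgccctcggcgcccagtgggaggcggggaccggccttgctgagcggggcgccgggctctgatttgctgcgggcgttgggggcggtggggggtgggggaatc
Col5a3, chr9:20815118-20815317 (minus strand): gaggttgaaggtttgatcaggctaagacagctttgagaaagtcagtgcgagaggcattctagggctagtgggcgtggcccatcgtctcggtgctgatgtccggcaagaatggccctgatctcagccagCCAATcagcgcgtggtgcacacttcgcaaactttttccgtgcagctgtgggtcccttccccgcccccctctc
Col24a1, chr3:145292222-145292421 (plus strand): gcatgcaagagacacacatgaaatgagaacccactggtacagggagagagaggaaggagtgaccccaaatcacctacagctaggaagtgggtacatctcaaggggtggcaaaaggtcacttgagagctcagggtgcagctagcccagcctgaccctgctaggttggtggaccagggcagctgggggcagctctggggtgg
A CCAAT box lay in 3 of the 7 windows, those of Col1a2, Col5a3 and Col11a1, against 28.43% of all 32851 promoter windows of that length. The box began 109 bases before the start in Col1a2, 122 in Col5a3 and 79 in Col11a1, where it was on the other strand. Base composition differed widely, from a GC content of 35% in Col3a1 to 78.0% in Col5a1, with Col24a1 at 57.5%. The GC box (GGGCGG, or CCGCCC) was found in the windows of Col1a2, Col5a1, Col5a3, Col11a1 and Col11a2, against 24.64% of all windows. The TATA box sequence (TATAAA, or TTTATA) was found in Col3a1 and Col11a2, against 9.141%, beginning 117 and 143 bases before the start. A TATA box nearer than 51 bases to the start would lie outside these windows and was not sought. The E-box (CANNTG, the form bound by Scx and other helix-loop-helix factors) was found in Col3a1, Col5a3, Col11a2 and Col24a1, against 59.05%. None of the 4 motifs was in all 3 windows of Col5a1, Col5a3 and Col24a1.

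The libraries held 42744138 to 48854310 counts. Scx and tenomodulin (Tnmd), which mark tendon cells, were present in every library. Transcripts of 16 skeletal muscle marker genes made up 1.81% to 2.46% of counts in WT. They made up 2.28% in DTRScxLin 2, and 0.372% and 0.651% in DTRScxLin 1 and 3. Xist, transcribed from the inactive X chromosome, had 49303 to 54082 counts in WT 2, DTRScxLin 2 and DTRScxLin 3 and at most 4 counts elsewhere, so the sexes were not balanced between genotypes. DTRScxLin 2 also stood nearest the controls for most of the collagens.

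The 10 genes together took 4.45%, 4.53% and 4.99% of all counts in the WT libraries and 7.28%, 4.77% and 6.27% in the DTRScxLin libraries. The groups overlapped, because DTRScxLin 2 lay below WT 3. The mean share was 4.66% ± 0.294 in WT and 6.10% ± 1.26 in DTRScxLin (SD, n = 3 each; two-sided exact permutation test, p = 0.2, where 3 against 3 cannot go below 0.1). The 2 libraries with the highest collagen shares were the 2 with the lowest muscle shares, and the part of muscle in the collagen values was not tested. Without DTRScxLin 1 the difference in the mean share fell from 1.45 to 0.864 percentage points, and without DTRScxLin 2 it was 2.12. In whole tissue a change in the number of cells and a change in RNA per cell cannot be told apart.

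**Figure D1:**
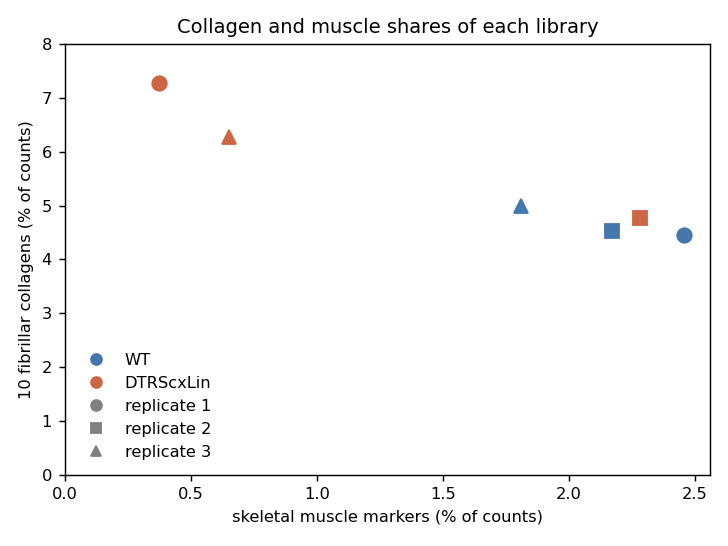
Share of each library's counts in the 10 fibrillar collagen genes (vertical axis, %) against its share in 16 skeletal muscle marker genes (horizontal axis, %), with 1 point per library. DTRScxLin 1 and 3 sit at the upper left, at 7.28% and 6.27% collagen, and DTRScxLin 2 sits among the WT libraries.

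Across the 10 genes the median log2 fold change (DTRScxLin against WT) was 0.46, where the median of all tested genes was 0.01. By edgeR's quasi-likelihood test with Benjamini-Hochberg adjustment, 0 of the 10 had an adjusted p under 0.05, as did 0% of all genes tested, the smallest adjusted p of any gene being 0.199. An unadjusted edgeR p under 0.05 with a higher level in DTRScxLin was reached by 6 of the 10, against 5.52% of all genes. DESeq2, the tool named in the submitters' processing notes, called 3 of the 10 higher (Col5a1, Col5a3 and Col24a1) and 0 lower, against 1.12% of all genes called higher. All 3 DTRScxLin libraries lay above all 3 WT libraries for 6 of the 10, against 8.96% of all genes, and below them for 0 of the 10, against 7.85%. Col5a1, Col5a3 and Col24a1 were also among the matrix genes the study drew from these same libraries, as were Lox, Adamts14, Thbs4 and Postn below, so their calls here are not independent evidence.

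**Figure D2:**
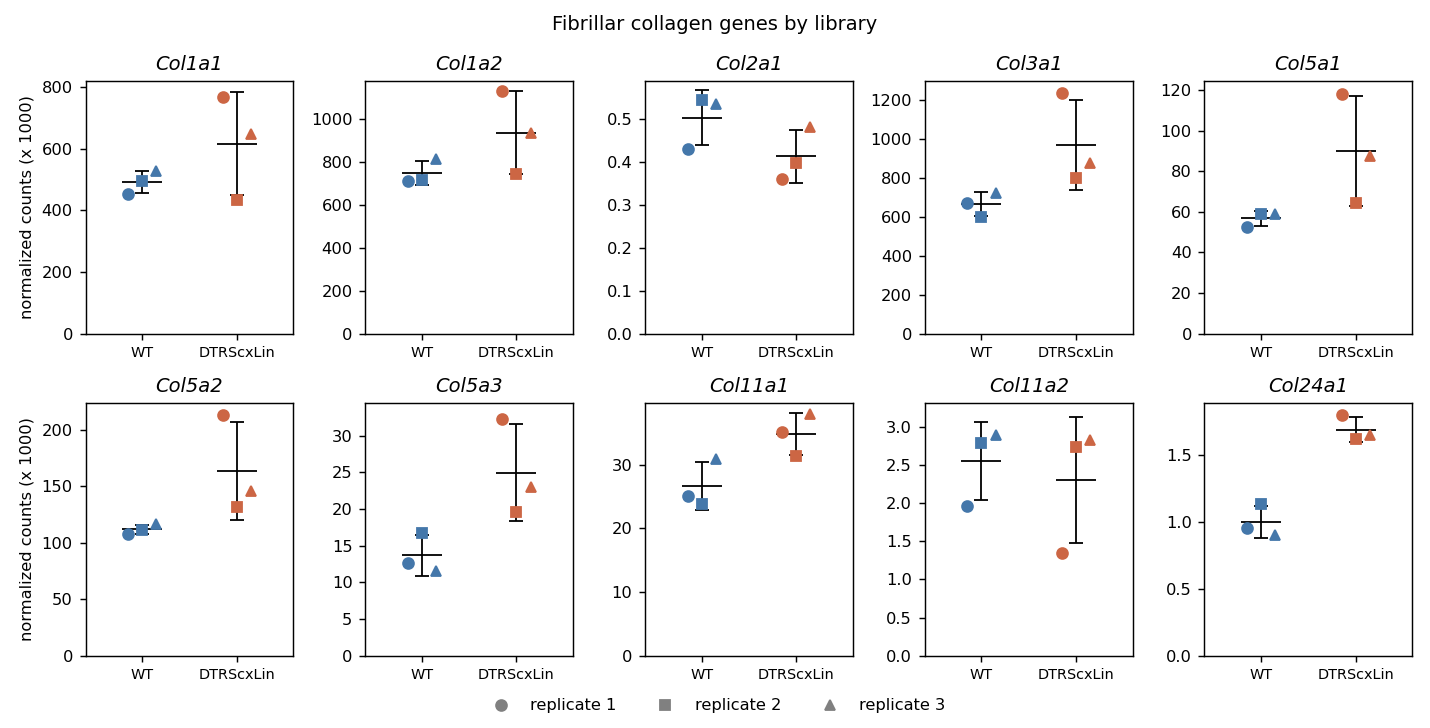
TMM-normalized counts, in units of 1000, of each gene in the 3 WT and 3 DTRScxLin libraries, with the mean (long bar) and SD (capped line). The groups do not overlap for Col3a1, Col5a1, Col5a2, Col5a3, Col11a1 and Col24a1, and DTRScxLin 1 is the highest library for 7 of the 10 genes.

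Type I collagen genes were higher on average in DTRScxLin by less than their spread allowed to be called. Col1a1, which encodes the chain present in double dose in the type I trimer, had 454158, 495276 and 527433 normalized counts in the WT libraries and 766467, 434832 and 647953 in the DTRScxLin libraries. DTRScxLin 1 and 3 were above every control and DTRScxLin 2 was below every control. The means were 492289 ± 36729 in WT and 616418 ± 168051 in DTRScxLin (SD, n = 3 each), a log2 fold change of 0.32 ± 0.23 (SE; edgeR adjusted p = 0.618, DESeq2 adjusted p = 0.502). Without DTRScxLin 1 the log2 fold change was 0.13, and without DTRScxLin 2 it was 0.52. Col1a2, the partner chain, had 711849, 716095 and 813650.0 normalized counts in the WT libraries and 1130482, 743560.4 and 930630.2 in the DTRScxLin libraries. DTRScxLin 2 fell within the control range, and the log2 fold change was 0.32 ± 0.21 (SE; edgeR adjusted p = 0.577), or 0.16 without DTRScxLin 1. The 2 chains kept close to one ratio, with 0.638, 0.692 and 0.648 Col1a1 counts for each Col1a2 count in WT and 0.678, 0.585 and 0.696 in DTRScxLin (two-sided exact permutation test, p = 0.9).

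Col3a1, the homotrimeric type III chain laid down early in scar, had 670917, 600798 and 723990.4 normalized counts in the WT libraries and 1233277, 799659.9 and 873489 in the DTRScxLin libraries. Every DTRScxLin library was above every control, and the lowest of them was 1.10 times the highest control. The log2 fold change was 0.54 ± 0.22 (SE), with an unadjusted edgeR p of 0.0407, an edgeR adjusted p of 0.447 and a DESeq2 adjusted p of 0.0611. Without DTRScxLin 1 the log2 fold change was 0.33. Col3a1 counts for each count of the 2 type I genes summed were 0.575, 0.496 and 0.540 in WT and 0.650, 0.679 and 0.553 in DTRScxLin. That ratio overlapped between genotypes, with DTRScxLin 3 below WT 1 (two-sided exact permutation test, p = 0.2).

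The 3 type V genes were all higher without overlap. Col5a1, the chain found in most type V trimers and required to start fibril assembly, had 52622, 58839.5 and 59099 normalized counts in the WT libraries and 117917, 64164 and 87705 in the DTRScxLin libraries. DTRScxLin 2 exceeded the highest control by a factor of 1.09 and DTRScxLin 1 was far above the rest. The means were 56854 ± 3667 in WT and 89929 ± 26945 in DTRScxLin (SD, n = 3 each), a log2 fold change of 0.66 ± 0.22 (SE; edgeR adjusted p = 0.389, DESeq2 adjusted p = 0.0394). Without DTRScxLin 1 the log2 fold change of Col5a1 was 0.41. Without DTRScxLin 2 it was 0.86, and Col5a1 was then called by edgeR. The DESeq2 call of Col5a1 was lost without any 1 of the other 5 libraries.

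Col5a2, the second chain of the common type V trimer, had 108249, 111095 and 116439.7 normalized counts in the WT libraries and 213231, 132078 and 145612 in the DTRScxLin libraries. The controls were within 1.08-fold of each other and all 3 DTRScxLin libraries were above them. The log2 fold change was 0.55 ± 0.20 (SE; edgeR adjusted p = 0.423, DESeq2 adjusted p = 0.0669), and 0.31 without DTRScxLin 1. Col5a3, another type V chain with a more restricted distribution, had 12619, 16789.8 and 11615 normalized counts in the WT libraries and 32303, 19559.9 and 23056 in the DTRScxLin libraries. Its means were 13675 ± 2744 in WT and 24973 ± 6584 in DTRScxLin (SD, n = 3 each), and its log2 fold change of 0.87 ± 0.22 (SE) was the highest of the 10 genes (edgeR adjusted p = 0.317, DESeq2 adjusted p = 0.00346). Its DESeq2 call was lost without WT 1, without WT 3 and without DTRScxLin 1. The lowest DTRScxLin library was 1.16 times the highest control.

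Within type V, the balance of chains did not separate the genotypes. Col5a2 counts for each Col5a1 count were 2.06, 1.89 and 1.97 in WT and 1.81, 2.06 and 1.66 in DTRScxLin (two-sided exact permutation test, p = 0.5). Col5a3 counts for each Col5a1 count were 0.240, 0.285 and 0.197 in WT and 0.274, 0.305 and 0.263 in DTRScxLin (two-sided exact permutation test, p = 0.3). Both ratios overlapped between genotypes.

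Type XI genes did not move together. Col11a1, the chain that mixes with type V chains outside cartilage, had 25111, 23860.2 and 30889 normalized counts in the WT libraries and 35149, 31355 and 37951 in the DTRScxLin libraries. The groups barely separated, the lowest DTRScxLin library being 1.02 times the highest control. With library size alone as the scaling, Col11a1 overlapped and 5 rather than 6 of the 10 genes were free of overlap. The log2 fold change of Col11a1 was 0.39 ± 0.14 (SE; edgeR adjusted p = 0.422, DESeq2 adjusted p = 0.121). Col11a2, which joins Col11a1 in the type XI trimer of cartilage, had 1964, 2790.1 and 2898 normalized counts in the WT libraries and 1346, 2738 and 2827 in the DTRScxLin libraries. The other two DTRScxLin libraries were within the control range and DTRScxLin 1 was the lowest of all 6, giving a log2 fold change of -0.15 ± 0.32 (SE; edgeR adjusted p = 0.895) that became 0.12 without DTRScxLin 1. Col11a2 counts for each Col11a1 count were 0.0782, 0.117 and 0.0938 in WT and 0.0383, 0.0873 and 0.0745 in DTRScxLin, with overlap (two-sided exact permutation test, p = 0.2).

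Col2a1, the type II chain, had 428, 544 and 533 normalized counts in the WT libraries and 359.6, 397 and 481 in the DTRScxLin libraries. It was the member with the fewest counts, and its log2 fold change of -0.28 ± 0.16 (SE) was not called (edgeR adjusted p = 0.537). The summed share of 14 cartilage marker genes was 0.0458% to 0.0578% of counts in WT and 0.0316% to 0.0405% in DTRScxLin, without overlap. The separation of the summed share rested on Chad, a cartilage leucine-rich repeat protein named here after its values were seen. Chad had 10898, 12246 and 12149.9 normalized counts in the WT libraries and 1197, 8098 and 3865 in DTRScxLin (DESeq2 adjusted p = 0.315). Without Chad, an alternative chosen after seeing the data, the shares overlapped, at 0.0220% to 0.0313% in WT and 0.0175% to 0.0317% in DTRScxLin. Of the 14, 10 were tested, 3 were fitted higher and 7 lower with a median log2 fold change of -0.21, while Col10a1, Matn1, Cnmd and Snorc were too low to be tested. DESeq2 called 1, Col9a1, a type IX chain that decorates type II fibrils, at -1.36 (DESeq2 adjusted p = 0.042). Col9a1 overlapped between genotypes, with WT 3 at 247 normalized counts and DTRScxLin 2 at 281. Taken gene by gene, 3 of the 10 tested, Chad among them, lay below every WT library in every DTRScxLin library. For all genes that share was 7.85%. None of the 10 lay above, against 8.96% of all genes. The part of cartilage-like cells in the Col2a1 and Col11a2 values was not tested.

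Col24a1, a minor fibril-forming chain, had the smallest relative spread of the 10 genes among the DTRScxLin libraries, a coefficient of variation of 5.55%, against 11.9% in WT. It had 955, 1131 and 906 normalized counts in the WT libraries and 1797, 1619.9 and 1654 in the DTRScxLin libraries. The lowest DTRScxLin library was 1.43 times the highest control, the widest gap of the 10 genes, and DTRScxLin 2 did not stand apart here. The means were 997 ± 119 in WT and 1690.2 ± 93.8 in DTRScxLin (SD, n = 3 each). The log2 fold change was 0.76 ± 0.11 (SE), with an unadjusted edgeR p of 0.000138, the seventh smallest of all genes, an edgeR adjusted p of 0.199 and a DESeq2 adjusted p of 2.77e-05. Leaving out any 1 library kept the log2 fold change of Col24a1 between 0.69 and 0.86, and DESeq2 called it each time. In edgeR it was called where no filter on low counts was used (edgeR adjusted p = 0.00358) and without DTRScxLin 2. Bone markers, a list checked because Col24a1 is known from bone, took at most 0.000648% of counts in any library. Col24a1 was itself a small part of the counts, with 872 to 1744 raw counts per library. The part of bone cells in the Col24a1 values was not tested.

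**Figure D3:**
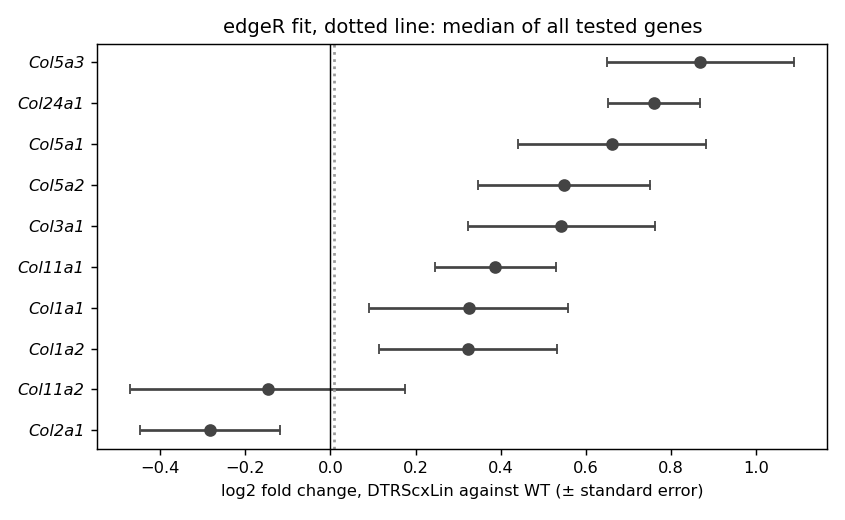
log2 fold change of each gene in DTRScxLin against WT with its standard error from the edgeR fit, ordered by size, and the median of all tested genes as a dotted line at 0.01. Col5a3, Col24a1 and Col5a1 lie highest at 0.87, 0.76 and 0.66, and Col11a2 and Col2a1 lie below 0.

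Ratios to Col1a1 within a library do not depend on how the library was scaled. Of the 9 other genes, 3 were above the controls in every DTRScxLin library relative to Col1a1 (Col5a1, Col5a3 and Col24a1), against 0.8% of all genes, and 1 was below (Col2a1), against 7.53%. For each, the two-sided exact permutation test gave p = 0.1, the smallest it can reach, and adjusted over the 9 ratios none of them could pass.

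Counts of Col5a1 for each 1000 counts of Col1a1 were 116, 119 and 112 in the WT libraries and 154, 148 and 135 in the DTRScxLin libraries. The ratio was above every control in DTRScxLin 2, where both genes were at their lowest in that genotype, and in DTRScxLin 1, where both were at their highest. The difference was 0.33 on the log2 scale and stayed between 0.29 and 0.38 when any 1 library was left out. Col5a3 stood at 27.8, 33.9 and 22 in the WT libraries and 42.1, 45 and 35.6 in the DTRScxLin libraries for each 1000 counts of Col1a1, a log2 difference of 0.57. Col24a1 stood at 2.1, 2.28 and 1.72 in the WT libraries and 2.34, 3.73 and 2.55 in the DTRScxLin libraries, a log2 difference of 0.48 that was 0.28 without DTRScxLin 2, with DTRScxLin 1 only slightly above WT 2. Col2a1 stood at 0.943, 1.1 and 1.01 in the WT libraries and 0.469, 0.913 and 0.742 in the DTRScxLin libraries, a log2 difference of -0.57 that was -0.30 without DTRScxLin 1.

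The remaining ratios overlapped. Counts of Col3a1 for each 1000 of Col1a1 were 1477, 1213 and 1373 in the WT libraries and 1609, 1839 and 1348 in the DTRScxLin libraries, with DTRScxLin 3 among the controls (two-sided exact permutation test, p = 0.3). For Col5a2 they were 238, 224 and 221 in the WT libraries and 278, 304 and 225 in the DTRScxLin libraries, with DTRScxLin 3 within the control range (two-sided exact permutation test, p = 0.2). The ratios of Col1a2, Col11a1 and Col11a2 overlapped too (two-sided exact permutation tests, p = 0.9, 0.6 and 0.7). Summed over chains, type V genes had 0.149, 0.154 and 0.140 counts for each type I count in WT and 0.192, 0.183 and 0.162 in DTRScxLin, without overlap and with a log2 difference of 0.28 (two-sided exact permutation test, p = 0.1). It was the only 1 of the 7 chain ratios computed that did not overlap, and Col24a1 counts for each Col5a1 count did overlap (two-sided exact permutation test, p = 0.7).

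The same question put to edgeR, with every library scaled to its own Col1a1 count, called 0 of the 9 genes (edgeR adjusted p from 0.767 to 0.981), against 1.61% of all genes. In that scale the median of all genes was -0.24, and the fitted log2 differences of Col5a3, Col24a1 and Col5a1 were 0.55 ± 0.31, 0.50 ± 0.30 and 0.33 ± 0.31 (SE). The spread of Col1a1 itself enters each of these errors.

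**Figure D4:**
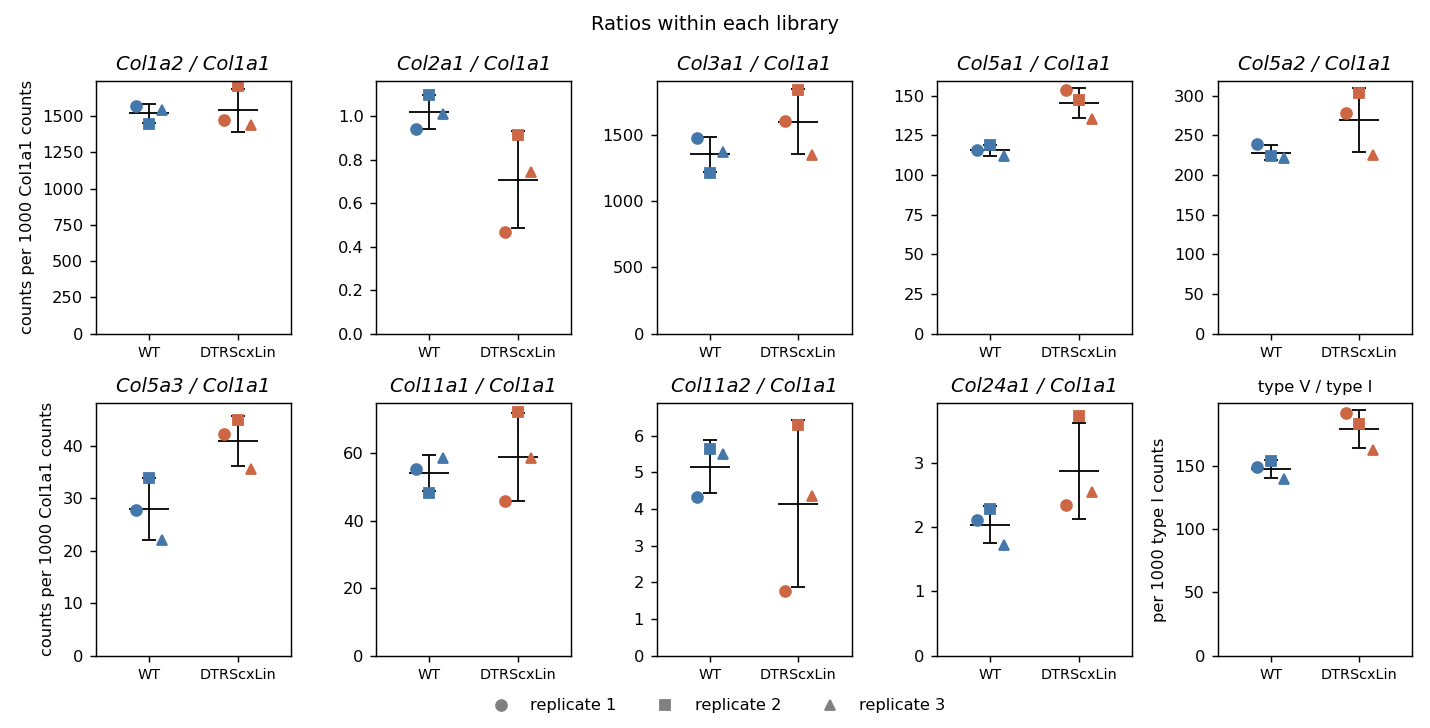
Counts of each gene per 1000 Col1a1 counts in each library, and in the last panel type V counts per 1000 type I counts, with the mean (long bar) and SD (capped line). Col5a1, Col5a3, Col24a1 and the type V to type I ratio do not overlap between genotypes and are higher in DTRScxLin, and Col2a1 is lower.

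Levels were compared between genes per kilobase of the longest coding transcript in GENCODE vM21. On that scale Col1a2 had 139715 ± 10768 in WT and 174811 ± 36181 in DTRScxLin normalized counts per kb (SD, n = 3 each), Col3a1 119561 ± 11106 in WT and 174121 ± 41695 in DTRScxLin, and Col1a1 83017 ± 6194 in WT and 103949 ± 28339 in DTRScxLin. Col1a2 and Col3a1 were not separable in DTRScxLin, where Col3a1 was the higher of the pair in DTRScxLin 1 and 2 and Col1a2 in DTRScxLin 3. Below them came Col5a2 at 16895 ± 628 in WT and 24700.4 ± 6563 in DTRScxLin, Col5a1 at 6763 ± 436 in WT and 10698 ± 3206 in DTRScxLin, Col11a1 at 3472 ± 489 in WT and 4541 ± 432 in DTRScxLin and Col5a3 at 2235 ± 448 in WT and 4081 ± 1076 in DTRScxLin. The last pair overlapped in DTRScxLin and not in WT. The lowest were Col11a2 at 422 ± 84.4 in WT and 381 ± 137 in DTRScxLin, Col24a1 at 139.6 ± 16.6 in WT and 237 ± 13.1 in DTRScxLin and Col2a1 at 98.3 ± 12.5 in WT and 80.8 ± 12.2 in DTRScxLin, and Col11a2 and Col24a1 overlapped in DTRScxLin through DTRScxLin 1. On this scale the order of the means was the same in both genotypes. Dividing by the length of all annotated exons instead put Col1a1 first in WT and Col3a1 first in DTRScxLin. It also put Col5a3 above Col11a1 in DTRScxLin. The order among the top 3 and of that pair thus depended on the length used.

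**Figure D5:**
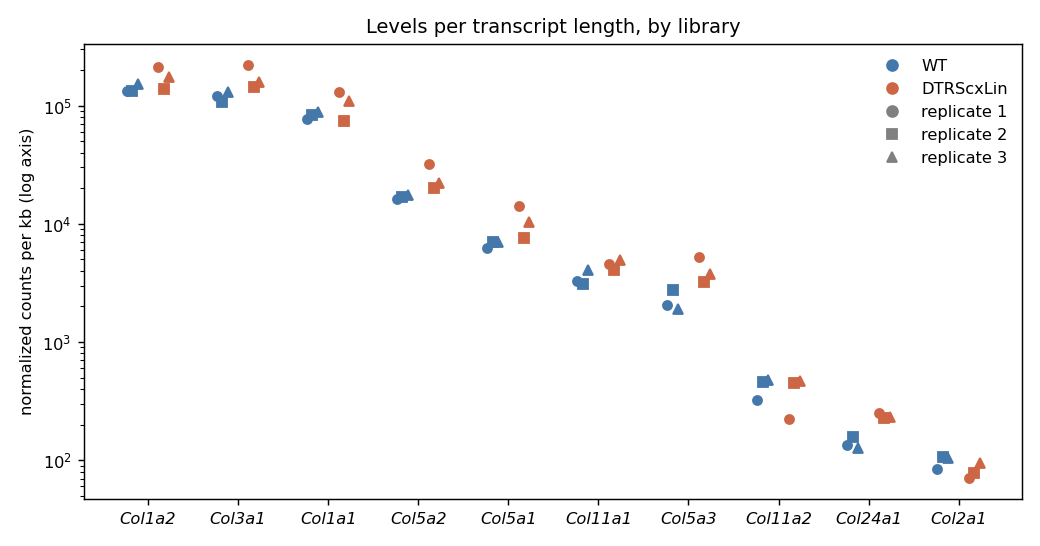
Normalized counts per kb of the longest coding transcript, on a log axis, for each gene and library, with genes ordered by their WT mean. Col1a2, Col3a1 and Col1a1 lie at the top, and Col11a2, Col24a1 and Col2a1 lie at or under 479 counts per kb.

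Over the 6 libraries, the genes with the most similar pattern were mostly not collagens. Similarity was Pearson's r of log2 normalized expression among the 14408 genes whose normalized count averaged 50 or more, given as a description since the libraries share genotype, depth and muscle content. For Col1a1 the nearest non-members were Col13a1 (r = 0.996), Samd14 (r = 0.994) and Cep164 (r = 0.993), and Col1a2 ranked 35. For Col3a1 they were Slc38a10 (r = 0.999), Renbp (r = 0.995) and Abhd4 (r = 0.993), and the nearest member was Col5a2 at rank 32 (r = 0.978). Col5a2 is also the gene beside Col3a1 in the RefSeq annotation of GRCm38.p6. For Col5a1 they were Piezo1 (r = 0.996), B4galt1 (r = 0.994) and Hnrnpa0 (r = 0.994), and the nearest member was again Col5a2, at rank 30 (r = 0.973). Col2a1 and Col11a2 had negative r to Col1a1, of -0.28 and -0.54, and ranked 9803 and 11632. Their r was also negative to Col3a1 (-0.73 and -0.68) and to Col5a1 (-0.55 and -0.59). With 6 libraries a value such as -0.28 cannot be told from no relation.

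Genes that fold, cut, cross-link and organise fibrillar collagen were described from lists, in which edgeR called none. Of 21 genes for procollagen folding and hydroxylation, 19 were fitted higher and 2 lower with a median log2 fold change of 0.26, and DESeq2 called 1. That gene was P4ha3, a catalytic subunit of prolyl 4-hydroxylase, which had 2459, 2556 and 2606 normalized counts in the WT libraries and 5189, 3477 and 4544 in DTRScxLin and a log2 fold change of 0.79 ± 0.14 (SE; edgeR adjusted p = 0.26, DESeq2 adjusted p = 0.000213). Of 8 genes for propeptide cleavage, 6 were fitted higher and 2 lower with a median of 0.19, and DESeq2 called Adamts14, an aminopropeptidase, at 0.51 (DESeq2 adjusted p = 0.0295). All 5 lysyl oxidase genes were fitted higher with a median of 0.26. Lox itself, which starts the cross-links between collagen molecules, had 60069, 58141 and 60603 normalized counts in the WT libraries and 104633, 86095 and 91920.2 in DTRScxLin and was called by DESeq2 at 0.66 ± 0.13 (SE; DESeq2 adjusted p = 5.78e-06, edgeR adjusted p = 0.274).

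Of 15 fibril surface and diameter regulators, 10 were fitted higher and 5 lower with a median of 0.21. DESeq2 called Thbs4, a tendon thrombospondin, at 0.65 (DESeq2 adjusted p = 5.94e-05) and Postn, a matricellular protein that promotes cross-linking, at 0.67 (DESeq2 adjusted p = 0.0364). Of 9 collagen receptors tested among 10 listed, 7 were fitted higher and 2 lower with a median of 0.17, and DESeq2 called Ddr1, a collagen-binding receptor kinase, lower at -0.58 (DESeq2 adjusted p = 0.0367). Of 9 genes for collagen breakdown and its inhibition, 7 were fitted higher and 2 lower with a median of 0.23 and no call by DESeq2. The largest differences there, Mmp9 at 1.25 ± 1.13 and Mmp8 at 1.11 ± 0.59 (log2, SE), overlapped between genotypes. In the same list 2 other genes lay above every WT library in every DTRScxLin library, against 8.96% of all genes. None lay below, against 7.85%. Of 14 transcriptional regulators of collagen, 10 were fitted higher and 4 lower with a median of 0.13, and DESeq2 called Egr2, a zinc finger factor of tendon, at 0.74 (DESeq2 adjusted p = 0.0137). Col27a1, the remaining fibril-forming chain, overlapped between genotypes at 0.28 ± 0.25 (log2, SE).

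Marker genes of cell types that the tissue could hold were read beside these values, and their part in the collagen differences was not tested. Of 10 tendon markers, 7 were fitted higher and 3 lower with a median of 0.26, and Scx had 2201, 2703 and 3063 normalized counts in the WT libraries and 3475, 3406 and 3531 in DTRScxLin, a log2 fold change of 0.39 ± 0.12 (SE; edgeR adjusted p = 0.371). All 16 muscle markers were fitted lower, with a median of -1.01 and the largest differences in Atp2a1 (-1.69) and Myh4 (-1.68), and none was called by edgeR or DESeq2. All 9 keratinocyte markers were fitted lower, led by Krt1 (-5.10) and Krt10 (-4.87), with summed shares of 0.297%, 0.183% and 0.00210% in WT and 0.00101%, 0.00174% and 0.0276% in DTRScxLin. All 6 adipocyte markers were fitted lower, and DESeq2 called Adipoq (-2.38), Plin1 (-2.25), Cfd (-2.53) and Cidec (-3.71). Among all 17564 genes with a DESeq2 adjusted p, 269 were called lower. Of 7 myofibroblast markers, 2 were fitted higher and 5 lower with a median of -0.37, and Postn was the gene DESeq2 called. Of 8 macrophage markers, 5 were fitted higher and 3 lower with a median of 0.08, and DESeq2 called Cd163 lower (-1.52). Of 7 endothelial markers, 1 was fitted higher and 6 lower with a median of -0.05, the largest differences being in Pecam1 (-0.15) and Emcn (-0.14). Of 8 bone markers, 7 were tested, 2 were fitted higher and 5 lower, with Bglap (-1.13) and Phex (-1.03) furthest from 0 and none called.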

How the data were processed

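RNA was sequenced from 6 FDL tendons, 3 WT and 3 DTRScxLin, each from 1 tendon. The labels describe both a stranded TruSeq and a SMARTER library kit. The aligner, genome build, annotation and strand setting of the counting are not given in the sources used here. The deposited table held raw read counts per gene symbol, which were used for the tests. A second deposited table held a signal scale, counts that the authors divided by a size factor (0.973 to 1.06) per library, with DESeq2 1.22.1 named in the submitters' processing notes. Libraries were grouped by genotype, and p-values measure the spread between these tendons. Counts were filtered with filterByExpr, TMM-normalized and tested with edgeR 4.0.16 (quasi-likelihood, robust, R 4.3.3), adjusted by Benjamini-Hochberg over all 17496 genes. DESeq2 1.42.0, limma 3.58.1, other scalings and filters, and each library left out were alternatives. Normalized counts are on the mean library size. Exact permutation tests used all 20 assignments. Replicates differed by more than counting noise (chi-square per degree of freedom 36.6 to 190). The 18 lists, the members among them, and the tests were chosen with earlier results of these data known. All members were named, with the 3 most similar genes of each of Col1a1, Col3a1 and Col5a1, and in other lists genes called by edgeR or DESeq2, or otherwise the 2 largest changes. Scx, Tnmd and Xist were named outside that rule, as checks of tissue and sex. In data simulated for DTRScxLin against WT on 17496 genes, edgeR recovered 47 of 97 genes changed by 1 on the log2 scale and 79 of 98 changed by 2, with 7 false calls among 16923 unchanged genes, and DESeq2 recovered 62 of 100 and 86 of 100, with 49 false calls among 17246. Recovery of genes changed by less than 1 on the log2 scale was not tested. The highest log2 fold change among the members was 0.87, that of Col5a3. Reads shared between overlapping genes could not be traced in the count table.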

Additional observations from a re-analysis of the deposited data

How the results depend on the processing

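The count of fibrillar collagens called was 0 with edgeR and stayed 0 under limma-voom, RLE, upper quartile and library size scaling, a minimum of 10 counts in every library, removal of the 16 muscle marker rows, which leaves the other counts as they were, and the deposited normalized counts in limma. It was 3 with DESeq2 (466 genes called in all, against 0 with edgeR and 1918 with an unadjusted p under 0.05) and 1 with no filter on low counts (Col24a1, 83 genes in all). Leaving out each library gave 0 to 2 members, the 2 being Col5a1 and Col24a1 without DTRScxLin 2, when 544 genes were called. By DESeq2 it gave 1 to 8 members, 1 without WT 1 (144 genes higher and 115 lower in all) or DTRScxLin 1 (99 and 128) and 8 without DTRScxLin 2 (493 and 1065), against 197 and 269 with every library. Relative to Col1a1, leaving out each library gave 0 to 2 (Col2a1 and Col5a3 without DTRScxLin 2), where 7224 of 17997 genes were then called. Chain ratios without overlap numbered 1 to 3 in place of 1, since fewer libraries overlap less readily. The log2 fold change of Col11a2 ranged from -0.32 to 0.12 and was positive without DTRScxLin 1. The median over the 10 genes ranged from 0.32 to 0.59. The cause of these changes was not tested. With the replicate number as a block the edgeR count was 0, the median 0.45 and 1 gene was called in all, and DESeq2 called 4 members (Col3a1, Col5a3, Col11a1 and Col24a1) among 245 genes higher and 468 lower; the block thus lost Col5a1. Same-numbered libraries did not deviate together from their genotype means (r = -0.19, -0.15 and -0.68). With means of 3 libraries these values cannot show whether the numbers pair tendons, which the labels do not state. Each member had 349 or more counts in every library. Counting error is small beside the spread of 3 tendons for the abundant members and a larger part of it for Col2a1 and Col24a1.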
